A study of Mus musculus with 3 samples.

Results

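Sperm ADAM proteins are represented here by 7 genes, Adam1a, Adam1b, Adam2, Adam3, Adam5, Adam18 and Adam32, which were taken by symbol from the 32285 genes of each deposited count table. All 7 symbols matched 1 row in every library. The question put to the data was in which germ cell stage each gene first appears, how high it then stands, and whether its level differs in testes with a conditional knockout of Tex10.

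The cells came from testes of adult C57BL/6N mice, dissociated with collagenase and counted with a droplet kit that reads messenger RNA from the 3′ end and counts each molecule once per cell by its molecular tag (UMI). Wildtype replicate 1 and wildtype replicate 2 each held cells of 1 mouse. The knockout library pooled cells of 2 mice with the genotype conditional Tex10 knockout, so it is 1 sample and no test between genotypes was possible. The labels name neither the promoter that drives the recombinase nor the deleted exons, and they give the same strain for both genotypes.

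ADAM proteins (a disintegrin and metalloprotease) are membrane-anchored proteins made of a prodomain, a metalloprotease-like domain, a disintegrin domain and a cysteine-rich region. In mouse sperm, ADAM1b and ADAM2 form the surface heterodimer known as fertilin, whereas ADAM1a pairs with ADAM2 inside germ cells of the testis. ADAM3, or cyritestin, is needed for sperm to pass into the oviduct and to bind the zona pellucida, and it reaches the sperm surface only when a series of chaperones, processing enzymes and other ADAM proteins are present. ADAM5, ADAM18 and ADAM32 are testicular relatives found on sperm whose tasks are less well defined.

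The members lie at 3 places of the mouse genome (GENCODE release M21 on GRCm38, the build called mm10 in the submitters' processing notes). Adam18 (chr8:24602246-24674755), Adam3 (chr8:24677225-24725852), Adam5 (chr8:24727093-24824369) and Adam32 (chr8:24836140-24948804) follow each other on the minus strand of chromosome 8. Their annotated ends are separated by 2469, 1240 and 11770 bases. Adam2 (chr14:66027329-66077733) is also on the minus strand. Adam1b (chr5:121500098-121503435), a single-exon gene, and Adam1a (chr5:121518576-121545482) lie 15140 bases apart on the minus strand of chromosome 5. Adam1b and part of Adam1a lie within Tmem116, which is read from the opposite strand.

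All 7 genes are annotated as protein-coding, and the last 500 bases of 6 of them share no 31-base word with transcripts of another gene. For Adam1a, 92.7% of such words also occur in Gm42878, a protein-coding gene model on the same strand that has no row in the count tables, and the Adam1a model also overlaps Mapkapk5 on the same strand. The Adam1a level therefore belongs to a shared 3′ end and is uncertain as a measure of Adam1a alone.

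Of the 7 members, 2 matched an entry of the RefSeq promoter table, Adam1a and Adam1b, neighbours that differed in stage, and both windows are shown. Each window holds 250 bases before and 50 bases after the RefSeq start (GRCm38.p6), read 5′ to 3′ on the minus strand. Capitals mark matches to the motifs searched on both strands.
Adam1a, chr5:121521646-121521945: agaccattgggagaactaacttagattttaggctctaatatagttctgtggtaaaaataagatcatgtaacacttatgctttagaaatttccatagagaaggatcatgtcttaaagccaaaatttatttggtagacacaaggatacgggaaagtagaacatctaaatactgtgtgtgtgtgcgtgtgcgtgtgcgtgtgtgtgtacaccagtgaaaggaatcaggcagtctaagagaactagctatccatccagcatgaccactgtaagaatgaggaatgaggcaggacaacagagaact
Adam1b, chr5:121503386-121503685: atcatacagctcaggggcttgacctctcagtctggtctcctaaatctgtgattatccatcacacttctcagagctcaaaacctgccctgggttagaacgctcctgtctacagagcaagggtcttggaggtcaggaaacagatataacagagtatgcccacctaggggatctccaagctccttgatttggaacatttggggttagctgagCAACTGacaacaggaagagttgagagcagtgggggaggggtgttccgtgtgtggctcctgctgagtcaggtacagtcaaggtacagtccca
The motifs were TGACG and TGACGTCA (the short and the full cAMP-response element), CAACTG (a form of MYB site), GTTGCC (a short form of the RFX site) and TATAAA (the TATA box), of which TGACG is contained in TGACGTCA. The Adam1b window held 1 match, to CAACTG, a motif found in 13.7% of 32851 such windows of mouse genes. The Adam1a window held no match to any of them. TGACG occurred in 20.8%, GTTGCC in 12.5%, TATAAA in 13.6% and TGACGTCA in 1.79% of the windows. The Adam1a window lies whole inside an annotated GENCODE exon of Adam1a, so the 2 annotations place the start of this gene differently. The GC content was 39.7% for Adam1a and 51.0% for Adam1b.

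The libraries held 93418341 UMIs in 9967 barcodes, 96001773 UMIs in 10153 barcodes and 147783171 UMIs in 12918 barcodes for wildtype replicate 1, wildtype replicate 2 and the knockout, and pairs of libraries shared 27 to 30 barcodes. After filtering, 7484, 7671 and 11053 barcodes were kept, of which 56.6%, 42.4% and 65.4% fell into clusters of low UMI totals and stayed out of the classes below. Germ cell classes were named from marker genes without the ADAM genes or their partners: spermatogonia, early spermatocytes, late spermatocytes, round spermatids and elongating spermatids, with 224 to 1826 cells per class and library. Germ cells of these classes held a median of 16344, 12336 and 20915 UMIs. Tex10, the targeted gene, stood at 45.1, 41.0 and 35.2 UMIs per 1000000 UMIs (CPM) over all kept cells. In spermatogonia, where it was highest, it stood at 142.7, 124.2 and 131.2 CPM, so the knockout lay between the wildtype libraries there. In each of the other germ cell classes the knockout was below both. Tex10 stood at 56.7, 54.1 and 47.1 CPM in late spermatocytes and at 22.6, 24.1 and 16.8 CPM in round spermatids. Since the labels do not state the deleted exons, a 3′ count does not check the genotype. All series of 3 values below are in the order wildtype replicate 1, wildtype replicate 2, knockout.

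All 7 genes had their onset in spermatocytes or spermatids. Over the 3 libraries, 2 members (Adam2 and Adam5) had their onset in early spermatocytes, 4 (Adam1b, Adam3, Adam18 and Adam32) in late spermatocytes and 1 (Adam1a) in round spermatids. Onset was the first class that reached 10% of the gene's highest germ cell class, with a lower exact 95% Poisson bound above the upper bound of the somatic cells, and the latest of the 3 libraries was counted. Adam1a was already at 11.7%, 16.25% and 11.8% of its highest class in late spermatocytes. Its lower bounds there were under the somatic upper bounds. Adam1b met this in early spermatocytes of the knockout library only, at 16.6 CPM beside 13.1 and 14.95 CPM in the wildtype libraries. All 3 libraries were past 10% there, and the upper bounds of the somatic cells differed, at 15.5, 22.5 and 12.8 CPM. In peritubular myoid cells alone the knockout upper bound was 23.5 CPM, above the 16.6 CPM of Adam1b. The highest class was late spermatocytes for 5 members and round spermatids for Adam3 and Adam1a. In every library the interval of the highest class was clear of those of the other germ cell classes, for each of the 7 genes. Intervals here cover counting error only.

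**Figure D1:**
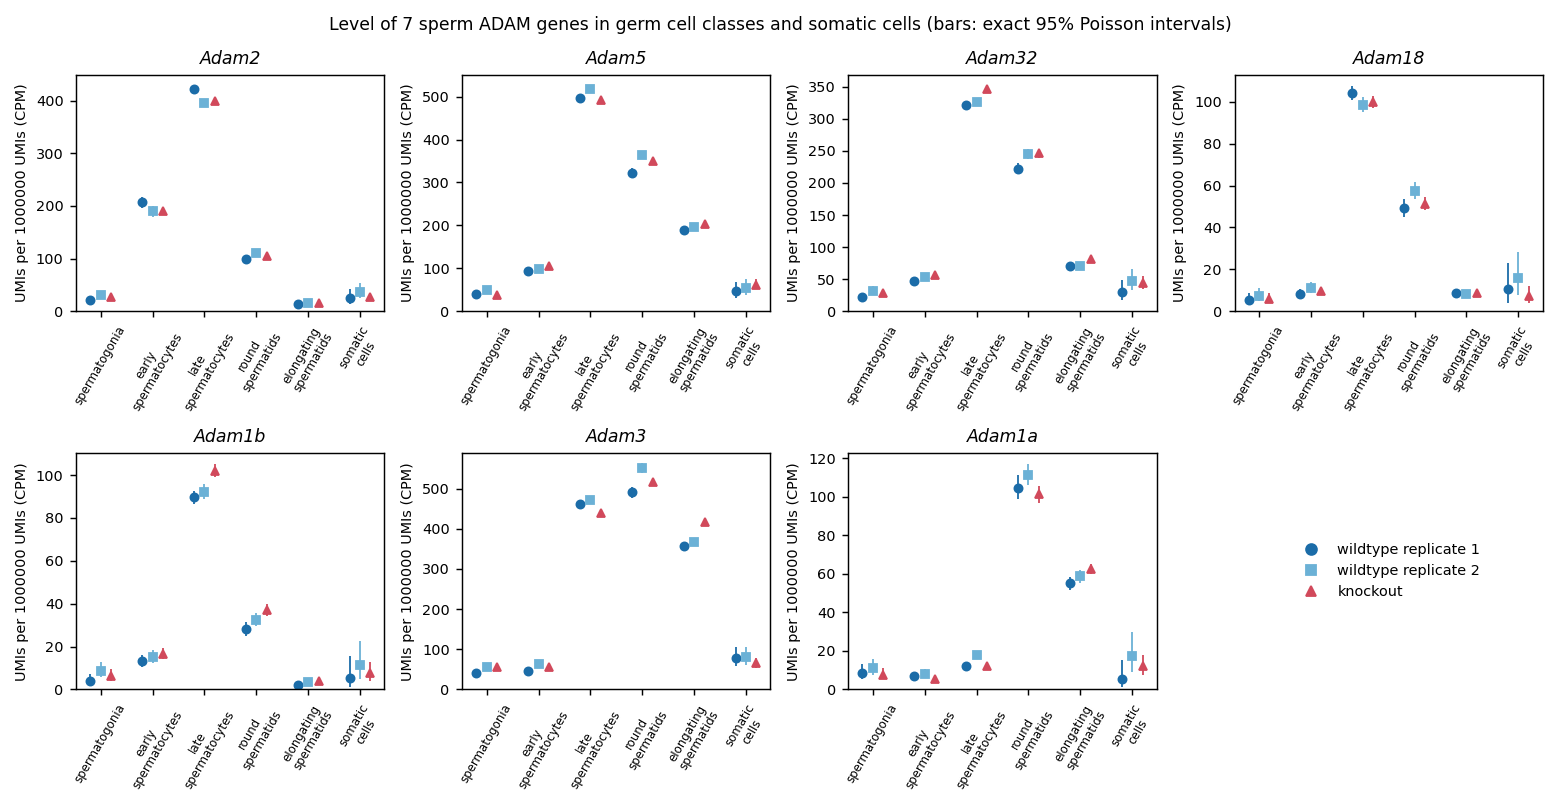
Level of each ADAM gene (vertical axis, CPM; each panel has its own linear scale from 0) in 5 germ cell classes and the pooled somatic cells, with 1 point per library and exact 95% Poisson bars. Adam1a is highest in round spermatids at 101 to 111 CPM, whereas Adam1b is highest in late spermatocytes at 89.7 to 102 CPM.

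Spermatogonia and somatic cells gave the background. The somatic cells were 94, 108 and 143 cells, mostly peritubular myoid cells, with Leydig cells in wildtype replicate 2 and the knockout library. By UMIs, Leydig cells gave 228951 of 700975 in wildtype replicate 2 and 1111778 of 1838822 in the knockout. In the knockout, Adam3 stood at 29.7 CPM in Leydig cells and at 119.7 CPM in peritubular myoid cells. The somatic bounds thus rest on pools of unlike make-up. The 7 genes together stood at 201, 264 and 223 CPM in somatic cells and at 143, 196 and 170 CPM in spermatogonia. Free RNA in the droplets gives UMIs in cells that do not express a gene, and Prm1, the protamine of late spermatids, stood at 2163, 2387 and 2153 CPM in spermatogonia beside 102470, 103688 and 91716 CPM in elongating spermatids. Levels of the ADAM genes at or under those in somatic cells are therefore read as background and not as expression.

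To resolve the classes further, the 12 germ cell clusters were placed in 1 chain of nearest neighbours, from spermatogonia (step 1) through early spermatocytes (steps 2 and 3), late spermatocytes (steps 4 to 6) and round spermatids (steps 7 and 8) to elongating spermatids (steps 9 to 12). Step 2 was led by Prss50 and Zcwpw1 and step 3 by Hormad1, Sycp1 and Sycp3, genes of early meiotic prophase. Piwil1 and Pou5f2 were among the leading genes of steps 4 and 5, and Ccna1 of step 6. Tnp1 and Tnp2, the transition proteins, marked step 10 and Prm2 step 12. Cells of step 5 were the deepest, with a median of 78839 UMIs, and those of step 2 were shallow, with 6302. Late spermatocytes (steps 4 to 6 together) also carried markers of round spermatids. These 14 markers summed to 1533, 1787 and 1434 CPM there, beside 6622, 6490 and 6489 CPM in round spermatids.

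**Figure D2:**
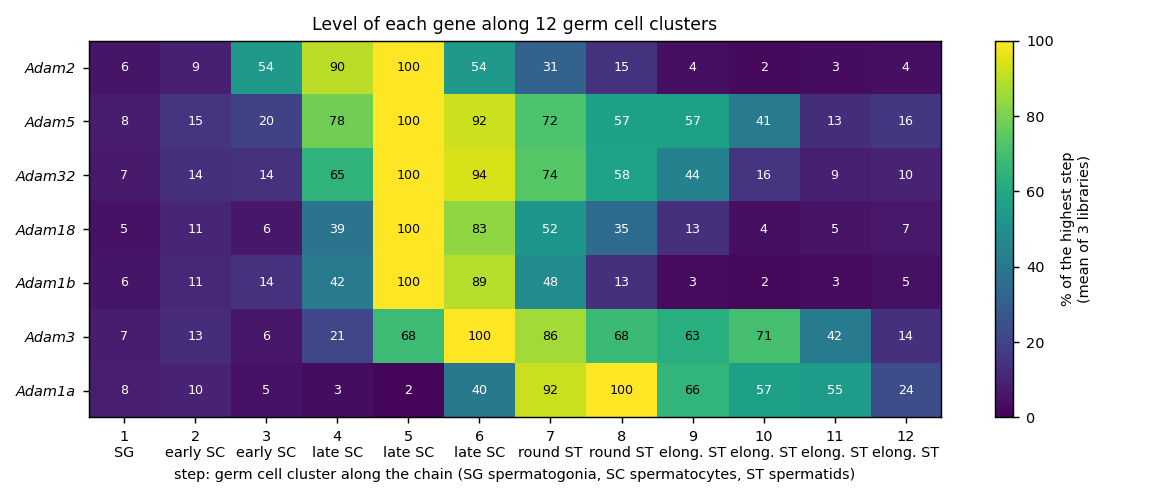
Level of each gene (rows) in 12 germ cell clusters in chain order (columns), as a percentage of that gene's highest step and averaged over 3 libraries (colour and printed value, linear scale from 0 to 100). The band of high values starts at step 3 for Adam2, where it stood at 54%, and at step 6 to 7 for Adam1a, where it went from 40% to 92%.

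Adam2, the fertilin beta subunit shared by both ADAM1 heterodimers, came first. In early spermatocytes it stood at 207, 190 and 191 CPM, and in late spermatocytes at 422, 395 and 400 CPM. In round spermatids it was 99.3, 111 and 104 CPM and in elongating spermatids 14.03, 16.3 and 14.6 CPM. With this clustering the order of classes was the same in all libraries: late spermatocytes, early spermatocytes, round spermatids, then spermatogonia at 21.8 to 30.5 CPM and elongating spermatids, with the spermatogonia within the interval of the somatic cells. The early level moved with the processing: early spermatocytes had 83.9, 74.9 and 90.9 CPM of Adam2 at a finer resolution, 81.7, 75.2 and 90.9 CPM with the members clustered, 148, 151 and 119 CPM under a stricter cell filter and 49.9, 62.2 and 68.9 CPM with no doublets left out.

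Along the chain, Adam2 was at background in step 1 and stood at 28.0, 48.5 and 51.1 CPM in step 2. One step later it was 270, 255 and 253 CPM, which is over 50% of its highest step in each library. Its highest level came at step 5, with 495, 483 and 459 CPM, or 38.2, 29.4 and 43.5 UMIs per cell. From step 9 on, Adam2 was at or below 22.6 CPM in every library, which is about its level in spermatogonia.

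Adam1b, the partner of ADAM2 on the sperm surface, was later than Adam2. It stood at 89.7, 92.4 and 102 CPM in late spermatocytes and at 28.0, 32.4 and 37.0 CPM in round spermatids. In elongating spermatids it was 2.28, 3.64 and 3.8 CPM, under its level in spermatogonia of 4.14, 8.80 and 6.40 CPM. The knockout value was the highest of the 3 libraries in late spermatocytes, round spermatids and elongating spermatids, at 112%, 122% and 129% of the wildtype mean. The values in elongating spermatids were under the somatic upper bounds in every library, so the 129% is a ratio of levels read as background. In late spermatocytes the wildtype mean was 91.0 ± 1.90 CPM (SD, n = 2). None of these differences met the size rule given below.

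By step, Adam1b was 45.9, 41.8 and 53.0 CPM in step 4, 104, 113 and 122 CPM in step 5 and 96.8, 103 and 99.6 CPM in step 6. It then stood at 50.9, 47.4 and 66.0 CPM in step 7 and at 14.9, 16.2 and 14.2 CPM in step 8. The gene was thus near its highest level only in steps 5 and 6. Its knockout value was the highest of the 3 libraries in steps 4, 5 and 7, between the wildtype values in step 6 and the lowest in step 8.

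Adam1a, which pairs with ADAM2 inside the germ cell, was the last of the 7. It stood at 12.3, 18.1 and 11.96 CPM in late spermatocytes, 105, 111 and 101 CPM in round spermatids and 55.1, 58.7 and 62.3 CPM in elongating spermatids. After thinning each cell to 2000 UMIs, a UMI of Adam1a was found in 18.4% (14.2 to 23.4, exact binomial interval), 20.2% (16.9 to 23.8) and 17.7% (14.2 to 21.8) of round spermatids. In somatic cells the shares were 2.13%, 2.94% and 2.82%, and without thinning the round spermatid shares were 93.6%, 89.5% and 95.7%.

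In step 5, where Adam1b was highest, Adam1a stood at 1.503, 2.41 and 1.21 CPM. In step 6 it was 37.9, 47.6 and 46.5 CPM, in step 7 it was 94.2, 111 and 95.9 CPM, and in step 8 it was 111, 112 and 105 CPM. Step 6, a cluster of late spermatocytes, was the first step to meet the onset rule, in all 3 libraries. By step, Adam1a thus had its onset in late spermatocytes, before its onset class of round spermatids. From step 9 to step 11 it remained between 53.8 and 78.5 CPM, and in step 12 it was 25.9, 28.6 and 23.4 CPM. The neighbours on chromosome 5 thus followed each other: in step 6 Adam1b was at 89% of its highest step and Adam1a at 40%, and in step 8 Adam1b was at 13% and Adam1a at its highest. Over 36 points (12 steps in 3 libraries) their levels on the log2 scale had a Pearson r of -0.37. Adam1a against Adam2 gave -0.53, the lowest of the 21 pairs of members. These coefficients describe clusters that share libraries and depth, and are given without a test.

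**Figure D3:**
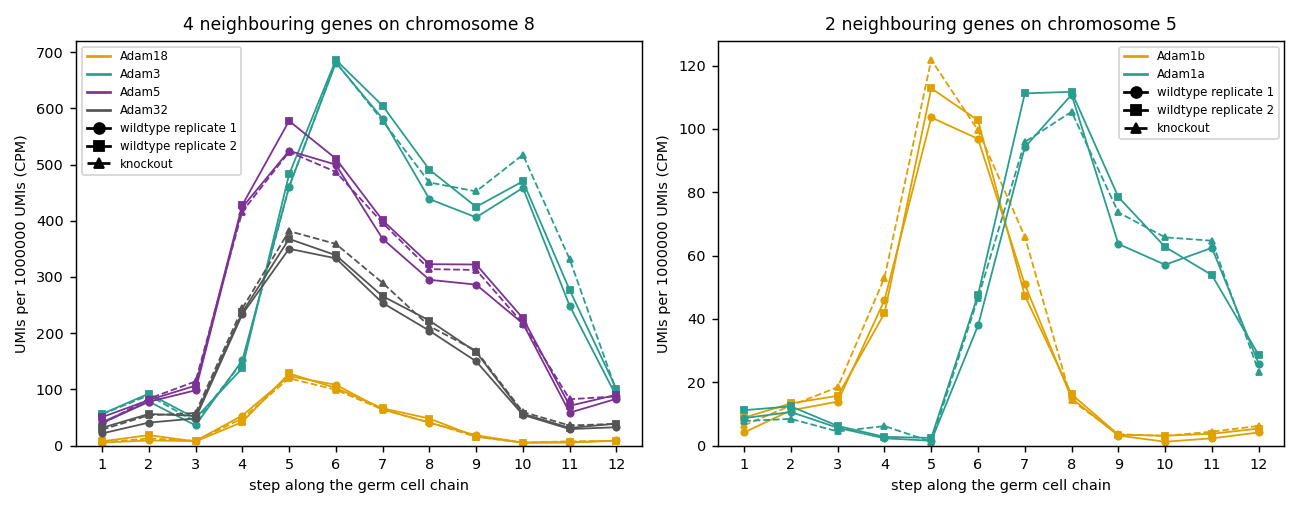
Levels (vertical axis, CPM, linear from 0) along the 12 steps of the germ cell chain for the 4 neighbouring genes on chromosome 8 (left) and the 2 on chromosome 5 (right), with 1 line per gene and library and the knockout dashed. Adam18, Adam5 and Adam32 are highest at step 5 and Adam3 at step 6, and the Adam1b curves cross those of Adam1a between steps 6 and 7.

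Adam3, whose protein is required for zona binding and oviduct passage, had a broad plateau. It stood at 460, 470 and 440 CPM in late spermatocytes, 491, 550 and 516 CPM in round spermatids and 357, 367 and 417 CPM in elongating spermatids, where the wildtype mean was 362 ± 6.85 CPM (SD, n = 2). In spermatogonia it was 41.8, 56.2 and 55.5 CPM, and in somatic cells 79.4, 81.3 and 65.3 CPM. A UMI was found in 62.1%, 67.5% and 65.9% of thinned round spermatids, against 14.9%, 11.8% and 11.97% of thinned somatic cells.

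The chain put the highest Adam3 level at step 6, with 681, 686 and 683 CPM, nearly alike in the 3 libraries. Step 3 had 35.9, 48.4 and 42.5 CPM, within background, and step 4 had 151, 138 and 148 CPM. The level was 439, 491 and 468 CPM in step 8, 459, 470 and 517 CPM in step 10, and 87.3, 100.4 and 96.6 CPM in step 12. Together with Adam1a, Adam3 was at 50% or more of its highest step as late as step 10, among the elongating spermatids in which the transition protein genes lead. In step 2 Adam3 was past 10% of its highest step in all 3 libraries, at 78.3, 92.3 and 89.3 CPM. Only the knockout library met the somatic condition there, with somatic upper bounds of 106, 105 and 78.0 CPM. In peritubular myoid cells alone the knockout upper bound was 147.6 CPM. All 3 values were above those in step 3, so step 2 shows no onset.

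Adam5 stood at 93.0, 98.4 and 105 CPM in early spermatocytes, 496, 519 and 492 CPM in late spermatocytes, 322, 363 and 350 CPM in round spermatids and 188, 195 and 203 CPM in elongating spermatids. Its early onset moved with the processing. With the stricter cell filter, no doublets left out, a finer clustering or the members clustered, early spermatocytes had 51.9 to 85.8 CPM of Adam5 and the onset class became late spermatocytes. It also became late spermatocytes at an onset threshold of 25%, and with low-UMI clusters named, where the early level was unchanged. At 25% it was the threshold that was not met. In the other settings Adam5 stayed past 10% of its highest class in early spermatocytes of every library. There the somatic condition was the part not met, in at least 1 library. Naming low-UMI clusters also added Sertoli, Leydig and macrophage clusters of low UMI totals to the somatic pool. Why the early levels moved was not tested. By step, Adam5 was 98.3, 107 and 114 CPM in step 3 and 424, 428 and 416 CPM in step 4, and it was at 50% or more of its highest step through step 9.

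Adam32 stood at 321, 326 and 347 CPM in late spermatocytes, 222, 245 and 246 CPM in round spermatids and 70.1, 70.7 and 80.9 CPM in elongating spermatids. Its steps followed those of Adam5, from 48.3, 52.9 and 57.9 CPM in step 3 to 233, 237 and 244 CPM in step 4 and 350, 368 and 382 CPM in step 5, but it ended sooner, with 54.6, 56.5 and 59.7 CPM in step 10 where Adam5 had 217, 227 and 217 CPM.

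Adam18 stood at 104, 98.7 and 99.8 CPM in late spermatocytes, 49.3, 57.5 and 51.3 CPM in round spermatids and 8.88, 7.99 and 8.54 CPM in elongating spermatids. In step 4 it was 53.4, 41.8 and 48.0 CPM, in step 5 it was 123, 128 and 120 CPM, and from step 10 on it was under 9.0 CPM, at its level in spermatogonia and somatic cells.

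The 4 neighbours on chromosome 8 gave r values between 0.58 (Adam3 with Adam18) and 0.96 (Adam5 with Adam32) over the 36 points, with a median of 0.80 over 6 pairs. The other 15 pairs ranged from -0.53 to 0.92 with a median of 0.56. The 0.92 was that of Adam1b with Adam2, which lie on different chromosomes. All pairs share the same clusters, and the ranges overlap.

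Steps at which the genes first and last stood at 50% of their highest level give the order in all 3 libraries. The first such step was 3 for Adam2, 4 for Adam5 and Adam32, 5 for Adam1b, Adam18 and Adam3, and 7 for Adam1a. The last was 6 for Adam2, 6 for Adam1b (7 in the knockout), 7 for Adam18, 8 for Adam32, 9 for Adam5, 10 for Adam3, and 11 for Adam1a except in wildtype replicate 2, where it was 10. The genes that came first were not in general the first to end, since Adam5 outlasted Adam18 and Adam1b.

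Counted per cell, 6 members had most UMIs in step 5, where cells were deepest, and Adam1a in step 8 at 4.04, 3.20 and 5.33 UMIs per cell. Adam5 reached 40.5, 35.1 and 49.6 UMIs per cell in step 5, and Adam3 35.5, 29.3 and 43.7. The knockout library had the most UMIs per cell for each member at these steps, and it also had the deepest cells, so levels between libraries are compared in CPM.

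Genes whose level along the 36 points was most like that of each member were taken from 10320 genes with at least 20 CPM in 1 or more steps of every library. For Adam1a they were Txndc8, a thioredoxin of spermatids (r 0.99), 4930584F24Rik and 1700011L22Rik. Adam1b was most like Slc6a16, Art3 and Hdgfl1 (0.98 each). Adam2 was most like Pde1c, a phosphodiesterase, Morc2b and Mpi, a mannose phosphate isomerase (0.99 each). For Adam3 the genes were Gm13605, Cmtm1 and Fam20a (0.97 to 0.98). Adam5 was followed most closely by the centrin gene Cetn1 (0.99), the testis lactate dehydrogenase gene Ldhc and Fank1. Adam18 was most like Ccdc110, the radial spoke gene Rsph6a and Ccdc83. Adam32 was most like Catsperz, a subunit gene of the sperm calcium channel CatSper (0.99), Cmtm2a, which is 1 of the partner genes below, and Prdx6b.

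Other ADAM genes of the testis were later than most of the 7 members. Of 15 such genes, 13 reached 20 CPM in a germ cell class. Of these, 12 were highest in round spermatids and 1, Adam30, in late spermatocytes. Onset was in round spermatids for 11 and in late spermatocytes for 2, Adam26b and Adam30, with the latest library counted. Adam20 and Adam26a had it in late spermatocytes in wildtype replicate 2 and the knockout, and Adam25 and Adam39 in the knockout only. By step, Adam20, Adam21, Adam24, Adam25, Adam26a, Adam26b, Adam34 and Adam39 met the rule at step 6, in late spermatocytes, in every library. The members other than Adam1a met it by step 4. The highest were Adam20, at 78.0, 92.2 and 80.0 CPM, and Adam29, at 79.2, 85.5 and 64.2 CPM in round spermatids. Among the 7 members, only Adam1a shared both the onset class and the highest class with the majority of these other testis genes.

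Widely expressed ADAM genes were mostly low in germ cells. Of 12, the 3 that reached 20 CPM in a germ cell class, Adam10, Adam15 and Adam17, were highest in spermatogonia. Adam10, a sheddase of many surface proteins, stood at 46.7, 52.8 and 38.7 CPM there and at 45.9, 48.5 and 52.8 CPM in somatic cells. Adam15 stood at 38.4, 40.6 and 37.9 CPM in spermatogonia and at 37.05, 17.1 and 39.7 CPM in somatic cells. None of the 3 met the onset rule in every library.

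Partner genes, whose products fold, process or accompany ADAM3 and its relatives, spread over more stages than the members. Of 16, 15 reached 20 CPM in a germ cell class: spermatogonia and early spermatocytes each had the highest level of 2, late spermatocytes of 3, round spermatids of 6 and elongating spermatids of 2. Tex101, a surface protein of germ cells, stood at 2182, 2105 and 2104 CPM in early spermatocytes. Cmtm2b stood at 1813, 1646 and 1783 CPM in late spermatocytes. Clgn and Calr3, chaperones of the endoplasmic reticulum that were singled out after their values were seen, differed in step: Clgn was 666, 668 and 700 CPM in step 5, where Calr3 was 1.39, 2.56 and 2.06 CPM, and Calr3 was highest in step 9, at 493, 402 and 409 CPM. Adam2, Adam5, Adam32, Adam18 and Adam1b had their highest step in common with Clgn.

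The knockout library was set against each wildtype library by a fixed size rule: a log2 ratio of at least 1 in size with 1 CPM added against both, in the same direction, at least 2 times the ratio between the wildtype libraries, and at least 20 CPM in 1 library. No member passed it in any class. The count was 0 of 4 members with 20 CPM in spermatogonia (0.353% of all 7365 genes passed). In spermatogonia these 4 were under the somatic upper bounds in every library, so this count rests on levels read as background above. For early spermatocytes it was 0 of 4 (0.247% of 6881). Of these, Adam3 was under the somatic upper bounds in every library and Adam32 in both wildtype libraries, so this count also rests in part on background. For late spermatocytes the count was 0 of 6 (0.733% of 6004). It was 0 of 7 in round spermatids (1.05% of 5431), 0 of 4 in elongating spermatids (1.35% of 3184) and 0 of 5 in peritubular myoid cells (3.79% of 8224). With so few genes passing in general, a count of 0 among 7 does not set these genes apart. None of the other testis ADAM genes, widely expressed ADAM genes or partner genes passed either.

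**Figure D4:**
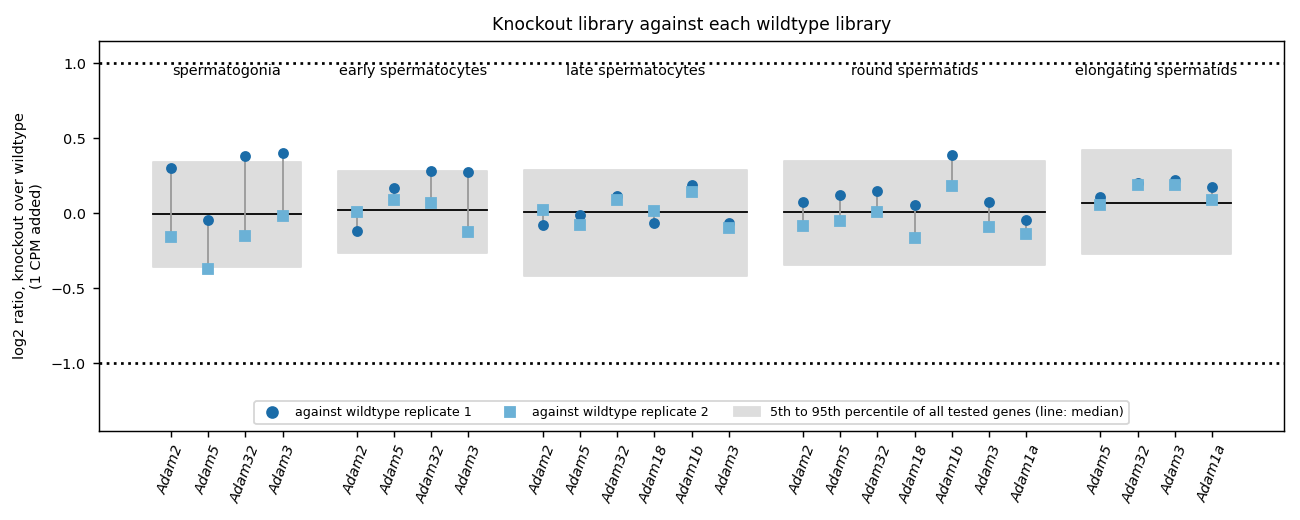
Log2 ratio of the knockout library to each wildtype library (vertical axis, 1 CPM added) for the members with at least 20 CPM in a class, with circles for wildtype replicate 1 and squares for wildtype replicate 2. Grey boxes span the 5th to the 95th percentile of the ratio to the wildtype mean over all tested genes, lines mark its median, and dotted lines mark a log2 ratio of 1 in either direction. No symbol reaches a dotted line.

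Summed over the 7 genes, the knockout level lay close to the wildtype levels in the stages where the genes are highest. In late spermatocytes the sum was 1907, 1919 and 1892 CPM, so the knockout was at 98.9% of the wildtype mean. In round spermatids it was 1316, 1471 and 1406 CPM, so the knockout lay between the wildtype libraries. In early spermatocytes it was 422, 438 and 441 CPM.

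Elongating spermatids were the germ cell class in which the members leaned one way. The sum was 695, 720 and 790 CPM, which put the knockout at 112% of the wildtype mean. All 4 members with 20 CPM, Adam1a, Adam3, Adam5 and Adam32, were above both wildtype libraries, as were 53.1% of all 3184 genes tested. Their log2 ratios to the wildtype mean were 0.13, 0.20, 0.08 and 0.20, with a median of 0.16 beside 0.07 over all genes tested. Scaled by the trimmed mean of M-values (TMM) the sum was 104% of the wildtype mean, and Adam5 had a ratio of -0.02. Knockout cells of this class were also deeper, with a median of 17394 UMIs beside 11538 and 9222, and the class's 13 marker genes summed to 263835 CPM beside 277494 and 283077, all 13 being detected in each library. The part of depth and of these markers in the result was not tested.

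Within elongating spermatids the median ratio of the members was largest in step 11. There all 4 members with 20 CPM were above both wildtype libraries, as were 40.6% of all 2731 genes tested, and their median log2 ratio was 0.28 beside 0.02 over all genes. Adam3 stood at 248, 277 and 331 CPM, Adam5 at 58.5, 70.8 and 82.3 CPM, Adam32 at 29.3, 31.3 and 35.7 CPM and Adam1a at 62.4, 53.8 and 64.7 CPM. The somatic upper bounds were 48.0, 66.1 and 54.15 CPM for Adam32 and 67.2, 74.4 and 73.9 CPM for Adam5. Adam32 was thus under them in every library and Adam5 in both wildtype libraries, so the median includes counts at background. In step 12, the last of the chain, 4 of 5 members lay between the wildtype libraries, as did 23.5% of all 2779 genes. Of these members, Adam2 and Adam32 were under the somatic upper bounds in every library, and Adam3 in both wildtype libraries. Neither step has a replicate check.

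In the earlier classes the members split in both directions. In late spermatocytes Adam1b and Adam32 were above both wildtype libraries (42.6% of all genes were), Adam3 and Adam5 below both (36.7%), and Adam2 and Adam18 between them (20.6%). The largest ratio among these 6 was that of Adam1b, 0.16 on the log2 scale, and 35.4% of tested genes had a ratio at least as large in size. In round spermatids Adam1b had the largest, 0.28, and 14.97% of genes had one as large. Adam3 stood at 94.5% of the wildtype mean in late spermatocytes, 99.2% in round spermatids and 115% in elongating spermatids.

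In peritubular myoid cells all 5 members with 20 CPM had a ratio above 0, with a median of 0.52 beside -0.04 over all 8224 genes. These are counts of 17 to 87 UMIs per gene in the knockout library, at the level read as background above. In the same knockout cells the 13 elongating spermatid markers summed to 14325 CPM beside 9471 and 10711, the 6 endothelial markers to 418 CPM beside 8.82 and 2.12, and the 5 erythroid markers to 128 CPM beside 0 in both wildtype libraries; their part in the result was not tested.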

How the data were processed

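Single-cell 3′ RNA libraries of 2 wildtype mice and 1 pool of 2 knockout mice were analysed. The deposited values are raw UMI counts per gene and barcode; the submitters' processing notes name Cell Ranger 4.0.0, Seurat 4.0.5 and mm10, without saying which made the counts. Use of strand is not given in the sources used here. Gene positions came from GENCODE M21, which matched 32158 of 32285 identifiers.

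Barcodes with at least 1000 UMIs, 500 genes and at most 10% mitochondrial UMIs were kept. Scrublet (scanpy 1.11.5) marked 0, 1 and 0 barcodes by its automatic threshold, so the top 8% of scores were left out. Over 2000 variable genes without the listed ADAM and partner genes, 30 components and 15 neighbours, Leiden clustering (leidenalg 0.10.2, resolution 1) gave clusters that were named from markers; names may differ from the study's own. Clusters whose median UMI total was under 3 times the library's lowest barcode were kept apart. UMIs were summed per class and library and scaled to 1000000 (CPM). Intervals are exact 95% Poisson or binomial. TMM factors came from edgeR 4.0.16. Scripts were tested on simulated data.

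Diffusion pseudotime placed elongating spermatids before late spermatocytes, so its planned 20 bins were replaced by the 12 germ cell clusters along their neighbour chain, a choice made after seeing the data. The named genes are the 7 members, in each list those passing the size rule or else the 2 highest, and the 3 genes most like each member. Members and lists were chosen with earlier results of these data known. Alternatives covered the cell filter, doublets, resolution, genes clustered, low-UMI clusters, onset threshold, scaling, low values, pseudocount, fold threshold and cluster weights.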

Additional observations from a re-analysis of the deposited data

How the results depend on the processing

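No member passed the size rule under any alternative run, 1.5-fold and each wildtype library left out included. Summed over the 5 germ cell classes, 187 gene-and-class pairs passed the rule, 749 with no filter on low values, 83 at 50 CPM or more and 507 at 1.5-fold. The onset counts moved with the clustering and with the onset rule. Instead of 2 members, early spermatocytes held 1 with the stricter cell filter, with Leiden resolution 2, with low-UMI clusters named, with members included in the clustering and at an onset of 25%, 0 with no doublets left out, and 4 with no somatic condition, under which round spermatids held 0 instead of 1. Adam2 kept its early onset in all but the alternative without doublet removal, where its early level was 49.9, 62.2 and 68.9 CPM. That was 11.8%, 15.8% and 17.2% of its highest class, so the somatic condition was the part of the rule not met. Why the level moved was not tested. Adam3 was highest in late spermatocytes with the stricter filter and with members clustered, which left 1 member highest in round spermatids.

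The summed knockout level in late spermatocytes was 98.9% of the wildtype mean, 99.8% with no doublets left out, 98.3% with members clustered and 98.3% with clusters weighted equally. In elongating spermatids it was 112%, 115% with low-UMI clusters named, 104% with TMM and 109% with clusters weighted equally. Of 250 alternative log2 ratios of single members, 221 moved by less than 1 wildtype SD, and the largest in size was 0.64. No paired analysis was possible because there is 1 knockout library. Depth limits the somatic cells, where a member can rest on as few as 3 UMIs.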

Other observations

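Some clusters of low UMI totals, which belong to no class of the report, held higher levels of single ADAM genes than any named germ cell cluster. Low-UMI clusters with Sertoli cell markers also held ADAM UMIs. The cluster led by Aard and Cst12 had Adam3 at 349, 309 and 397 CPM, and the cluster led by Cst12 and Cst9 at 174, 186 and 214 CPM. The part of free RNA in the levels of low-UMI clusters was not tested. A cluster of 555, 383 and 359 barcodes with a median of 1755 UMIs, led by Spam1, Spaca1 and Pdilt among others, had Adam2 at 728, 649 and 665 CPM, in the library order of the report. The highest named step had 459 to 495 CPM. Adam1b in this cluster was 172, 190 and 187 CPM and Adam18 was 236, 234 and 289 CPM. Adam3 and Adam5 were lower there than in late spermatocytes, at 271, 281 and 280 CPM and at 179, 195 and 209 CPM. High Adam2 was not particular to this cluster. It was 777, 658 and 512 CPM in a low-UMI cluster led by mt-Co2 and 547, 639 and 514 CPM in one led by Tmem249.

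A second cluster, of 130, 71 and 277 barcodes with a median of 1641 UMIs and with Prss58, Prss52, Prss37 and Calr3 among its leading genes, had the reverse pattern. Adam5 stood at 1082, 1062 and 1245 CPM, Adam3 at 770, 928 and 987 CPM, Adam32 at 651, 661 and 718 CPM and Adam1a at 291, 214 and 239 CPM. Adam2 was 80.7, 125 and 112 CPM and Adam1b 10.8, 17.9 and 22.8 CPM, the latter from 2, 2 and 13 UMIs. The clusters of low UMI totals described here were chosen after their values were seen.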
